A study of Homo sapiens with 4 samples.

Results

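Solute carriers are the genes named SLC or SLCO that encode membrane transporters for sugars, amino acids, ions, metals, nucleotides, vitamins and lipids. The 165 genes described here were selected on their measured level: rows named by the SLC or SLCO scheme that reached 1 RPKM (reads scaled to gene length and library size) in the highest of 4 lines. The table holds 57746 rows, of which 344 match the name scheme. SLC22A18, SLC2A1 and SLC2A3 were left out by name, and 176 others stayed under 1 RPKM in every line, 43 of them listed at 0 throughout. The scheme takes in only names without a suffix, so SLC25A10 and SLC5A3, which the table writes with one, and SLC35 genes other than the A branch are not among them.

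RNA was sequenced from 4 lines of 1 origin, 1 library each, so no line has replicate cultures. SA grew out of soft agar colonies of DLD1 and SPH out of its colonospheres (floating spheres of colon cells), both of them labelled mesenchymal. METS was raised from a xenograft's metastasis in the lung, and the labels class it as epithelial together with parental DLD1, a human colorectal cancer line. The labels name no edited gene and no drug. All lines were kept in McCoy's 5A medium with fetal bovine serum, penicillin and streptomycin, so the lines shared their nutrients. Whether a derivative is 1 clone, and in which host the xenograft grew, is not stated.

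Solute carriers work as uniporters, symporters that ride the sodium or proton gradient, or exchangers that trade one solute for another, and many pair with a helper subunit. The colon surface is known for carriers of sodium, chloride and short-chain fatty acids. Tumour cells are known for carriers of glutamine, leucine, cystine and lactate. Most carriers of the SLC25 family sit in the inner mitochondrial membrane and link it to the cytosol.

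From the step between low values, 1 RPKM over 1 kb of exon stood for about 48.5 reads in SA, 52.9 in SPH, 50.2 in METS and 53.8 in DLD1. At that depth 93 of the 165 carriers held about 1000 reads or more in every line, and 4 (SLC17A9, SLC2A12, SLC34A3 and SLC5A1) had under about 100 reads in their lowest line. These figures cover counting error only. Of 10 markers of colorectal epithelium, 8 reached 1 RPKM in at least 1 line, with EPCAM between 212 and 263 RPKM, while CEACAM5 stayed at or under 0.06 RPKM and LGALS4 at or under 0.75 RPKM. The 10 markers summed to 1615 RPKM in SA and 1742 in SPH, against 2784 in METS and 2200 in DLD1. The keratins KRT8, KRT18 and KRT19 weigh most in these sums and were each lower in SA and SPH. KRT8, the highest, stood at 565 RPKM in SA and 587 in SPH, against 1084 in METS and 817 in DLD1. Among the other markers CDH1 shared that order, and EPCAM, KRT20, CDX2 and VIL1 did not. The part of these differences in the results below was not tested. KRT20 stood at 4.06 RPKM in SA, 3.18 in SPH and 0.50 in METS, against 21.9 in DLD1. Markers of fibroblast, endothelium, leukocyte, red cell and lung epithelium reached at most 1.36 RPKM, and the highest summed level of any of these lists was 1.76 RPKM, the leukocyte list in METS. Vimentin (VIM), a cytoskeletal protein typical of mesenchyme, had 12.5 RPKM in SA and 12.2 in SPH, against 0.22 in METS and 0.18 in DLD1. E-cadherin (CDH1), which joins epithelial cells, had 94.5 RPKM in SA and 97.3 in SPH, against 103 in METS and 115 in DLD1. CDH2, also known from mesenchymal cells, stayed at or under 0.21 RPKM in all lines. ZEB1, likewise known from them, was low throughout, at 0.26 RPKM in SA and 0.23 in SPH, against 0.06 in METS and 0.02 in DLD1. SNAI1, a repressor of the epithelial state, had 1.52 RPKM in SA and 1.94 in SPH, against 2.41 in METS and 2.0 in DLD1. VIM, CDH2, ZEB1 and SNAI1 were chosen after their values were seen.

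The carriers made up a like part of each library: they summed to 2461 RPKM in SA, 2577 in SPH and 2511 in METS, against 2559 in DLD1. That is 0.893%, 0.920% and 0.881% of all values, against 0.912% in DLD1. In 149 of the 165 the level was at least 1 RPKM in all 4 lines. The ratio of the highest to the lowest line was under 1.5 for 120 carriers and at least 2, or against a line listed at 0, for 22. The average level was 10 RPKM or more for 51 carriers and 100 RPKM or more for 5.

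Those 5 were 3 mitochondrial carriers and 2 amino acid carriers. SLC25A5, an exchanger of ADP for ATP in the mitochondrion, was highest, at 304 RPKM in SA and 324 in SPH, against 309 in METS and 326 in DLD1. SLC25A6, another ADP/ATP exchanger, stood at 189 RPKM in SA and 289 in SPH, against 252 in METS and 252 in DLD1. SA was the lowest line in SLC25A6 and SPH the highest. SLC25A3, the mitochondrial phosphate carrier, held 135 RPKM in SA and 138 in SPH, against 161 in METS and 140 in DLD1. The pseudogene rows of SLC25A5, SLC25A6, SLC25A3 and SLC7A5 reached at most 0.02 RPKM, so how reads shared with such near-identical copies were counted is uncertain. The 35 mitochondrial carriers together summed to 1041 RPKM in SA and 1179 in SPH, against 1139 in METS and 1152 in DLD1.

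**Figure D1:**
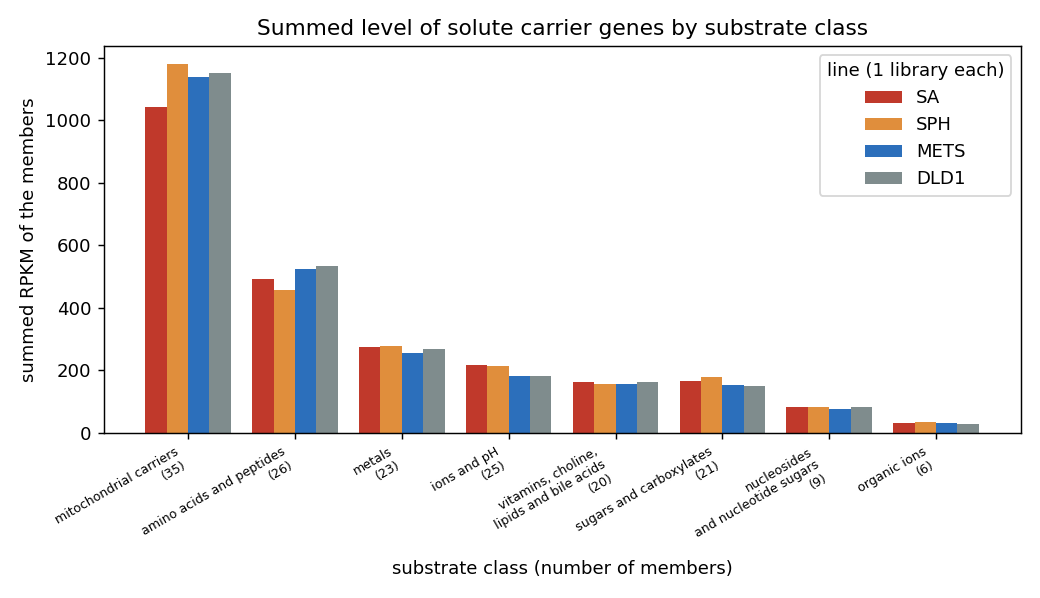
Summed RPKM of the 165 solute carrier genes by substrate group (bars from 0, number of genes under each name) in SA, SPH, METS and DLD1, 1 library each. Amino acid and peptide carriers summed to 491.1 in SA and 455.7 in SPH, against 522.5 in METS and 532.7 in DLD1. The highest of them, SLC1A5, SLC7A5 and SLC3A2, weigh most in these sums and were each lower in SA and SPH. The order of the sums is therefore not a trait of the group as a whole. Ion carriers summed to 214.9 in SA and 214.0 in SPH, against 182.4 each in METS and DLD1. Without SLC12A2 they summed to 148.7 and 152.8, against 152.3 and 139.9.

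Several carriers known from absorptive epithelium stayed below the threshold of 1 RPKM. SLC26A3 (the chloride/bicarbonate exchanger of the colon surface), SLC15A1 (the intestinal peptide carrier), SLC5A8 (a sodium-coupled carrier of short-chain fatty acids) and SLC4A4 (a sodium bicarbonate cotransporter) reached at most 0.02 RPKM. SLC10A2, the ileal bile acid carrier, was listed at 0 in every line, SLC6A14 reached 0.17 RPKM, SLC40A1 (the iron exporter ferroportin) 0.19 RPKM and SLC9A3 (an apical sodium/proton exchanger) 0.55 RPKM. Some other carriers named for a known role in the colon or in tumour cells lay above the threshold in every line. Among them were SLC5A6 at 8.02 to 9.97 RPKM, SLC46A1 at 1.91 to 2.81, SLC22A5 at 2.08 to 2.47 and SLC26A2 at 1.68 to 2.13. Just inside the threshold were SLC27A1, SLC24A1, SLC22A23, SLC5A1 and SLC38A6, with highest values of 1.08, 1.12, 1.18, 1.23 and 1.25 RPKM. Just outside it were SLC38A5, SLC25A51, SLC43A2, SLC16A10 and SLC44A5, with highest values of 0.98, 0.92, 0.90, 0.75 and 0.68 RPKM.

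The mesenchymal lines SA and SPH were compared with the epithelial lines METS and DLD1 by limma-trend on log2(RPKM + 1), over 11262 genes with at least 1 RPKM in 2 or more of the 4 libraries. The p-values measure the spread between the 2 lines of a class, not between cultures. Of the 160 carriers tested, 1 was called higher (SLC17A9) and 0 lower at an adjusted p of 0.05, against 0.32% and 0.0355% of all genes. SLC17A9 reached the 1 RPKM of the membership rule and of the test's filter only through SA and SPH, so it had to differ, and nothing is read from this count. At an unadjusted p of 0.05 the test marked 21 carriers (13.1%), 16 higher and 5 lower in SA and SPH, against 8.65% of all genes. The median difference of the 160 carriers was 0.036 on the log2 scale, against 0.038 for all genes tested.

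SLC17A9 loads ATP into vesicles. It stood at 1.28 RPKM in SA and 1.37 in SPH, and was listed at 0 in METS and DLD1. Both mesenchymal lines held it above both epithelial lines, an order fixed by the filter, which it passed only through SA and SPH. Its adjusted p of 0.0306 (limma-trend, Benjamini-Hochberg) is therefore no support for a difference. Its level in SPH corresponds to about 400 reads. No fold is given against lines listed at 0. In bulk RNA, fewer cells with a transcript and less of it per cell cannot be told apart. Leaving out SA, SPH or METS took its adjusted p to 0.175, 0.288 and 0.0667, and leaving out DLD1 gave 0.0211. Without a filter on low values its adjusted p was 0.0806.

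Both mesenchymal values lay above both epithelial values for 40 of the 165 carriers (24.2%), against 24.8% of 11664 genes. Both lay below for 25 carriers (15.2%), against 13.2% of those genes. Shares this close to the background are not a result about the carriers. None of the differences described next passed the test over all genes.

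A heme carrier and a thiamine carrier had the largest differences besides SLC17A9. SLC48A1 moves heme out of endosomes and lysosomes. It stood at 10.4 RPKM in SA and 10.6 in SPH, against 4.47 in METS and 5.78 in DLD1, a difference of 0.92 on the log2(RPKM + 1) scale (SE 0.14) with an adjusted p of 0.105 (limma-trend). SLC44A4, a choline-like carrier that takes up thiamine pyrophosphate in the colon, stood at 7.71 RPKM in SA and 12.6 in SPH, against 1.64 in METS and 5.50 in DLD1. Its difference was 1.39 (SE 0.43) with an adjusted p of 0.454, and METS was the lowest line and SPH the highest. Without DLD1, SLC48A1, SLC44A4, SLC12A2 and SLC1A3 also passed, with differences of 1.07, 2.04, 1.06 and 1.09, so that 5 of 160 carriers (3.12%) were called, against 2.71% of all genes, a share near the background. Without METS their differences were 0.76, 0.74, 0.57 and 0.58, with adjusted p of 0.111, 0.512, 0.210 and 0.289, and without SA or SPH none passed (limma-trend, adjusted p from 0.403 to 1.0). In each of these 4 genes METS was the lowest line and DLD1 lay between METS and the mesenchymal lines.

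Among carriers of ions and of anionic amino acids, SLC12A2, the sodium-potassium-chloride importer NKCC1, stood at 66.2 RPKM in SA and 61.2 in SPH, against 30.1 in METS and 42.5 in DLD1. The difference was 0.81 (SE 0.17) with an adjusted p of 0.280 (limma-trend). SLC1A3, a sodium-coupled glutamate and aspartate carrier, stood at 4.0 RPKM in SA and 4.11 in SPH, against 1.37 in METS and 2.37 in DLD1, with an adjusted p of 0.297. SLC9A5, a sodium/proton exchanger, stood at 1.60 RPKM in SA and 2.09 in SPH, against 0.51 in METS and 1.16 in DLD1. Its exons overlap those of FHOD1 on the opposite strand, and whether counting used strand is not stated.

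Of the mitochondrial carriers, SLC25A27, of the uncoupling protein branch, stood at 3.61 RPKM in SA and 3.45 in SPH, against 1.68 in METS and 1.70 in DLD1. The difference was 0.75 (SE 0.11) with an adjusted p of 0.101 (limma-trend), and the lines of each class lay close together. SLC25A20, which exchanges carnitine for acylcarnitine and so feeds fatty acids to oxidation, stood at 6.62 RPKM in SA and 8.18 in SPH, against 4.04 in METS and 5.16 in DLD1. The 35 mitochondrial carriers had a median difference of 0.025, with 10 above and 4 below in every mesenchymal-epithelial pair, near the shares of all genes given above.

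The 5 largest differences among carriers with a promoter window available are shown with their windows, 250 bases before to 50 after the start of the gene, from RefSeq on GRCh38.p14 (the values use hg19). Capitals mark 2 forms searched on both strands: the E-box CACCTG, a target form of the ZEB and SNAI repressors of the epithelial state, and TGATGNAA, a form read by ATF4 and its relatives in amino acid shortage. They do not overlap each other in these windows. SLC44A4 lies on the minus strand of chr6:31878948-31879247, SLC48A1 on the plus strand of chr12:47772988-47773287 and SLC1A3 on the plus strand of chr5:36596338-36596637. SLC12A2 lies on the plus strand of chr5:128083516-128083815 and SLC25A27 on the plus strand of chr6:46652725-46653024.
SLC44A4: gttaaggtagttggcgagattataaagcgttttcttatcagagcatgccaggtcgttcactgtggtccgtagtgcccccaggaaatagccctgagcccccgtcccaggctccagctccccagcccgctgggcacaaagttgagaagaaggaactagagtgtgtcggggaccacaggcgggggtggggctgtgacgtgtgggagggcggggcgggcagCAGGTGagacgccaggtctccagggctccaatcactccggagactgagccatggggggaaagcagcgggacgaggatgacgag
SLC48A1: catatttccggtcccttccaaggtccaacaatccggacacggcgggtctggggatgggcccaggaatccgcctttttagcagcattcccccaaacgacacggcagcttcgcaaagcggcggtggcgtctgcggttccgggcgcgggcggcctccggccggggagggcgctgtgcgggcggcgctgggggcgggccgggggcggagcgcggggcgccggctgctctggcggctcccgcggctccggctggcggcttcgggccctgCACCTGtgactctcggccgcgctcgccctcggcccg
SLC1A3: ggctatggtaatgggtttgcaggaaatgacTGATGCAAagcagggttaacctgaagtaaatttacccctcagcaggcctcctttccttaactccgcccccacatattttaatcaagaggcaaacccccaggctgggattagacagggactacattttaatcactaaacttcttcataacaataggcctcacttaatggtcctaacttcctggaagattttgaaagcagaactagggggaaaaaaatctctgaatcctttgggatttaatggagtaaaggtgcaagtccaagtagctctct
SLC12A2: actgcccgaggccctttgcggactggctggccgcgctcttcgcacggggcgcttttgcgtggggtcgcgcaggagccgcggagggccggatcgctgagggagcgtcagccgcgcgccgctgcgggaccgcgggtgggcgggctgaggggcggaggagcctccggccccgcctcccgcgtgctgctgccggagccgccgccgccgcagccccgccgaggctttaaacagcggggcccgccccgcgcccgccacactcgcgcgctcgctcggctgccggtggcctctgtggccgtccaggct
SLC25A27: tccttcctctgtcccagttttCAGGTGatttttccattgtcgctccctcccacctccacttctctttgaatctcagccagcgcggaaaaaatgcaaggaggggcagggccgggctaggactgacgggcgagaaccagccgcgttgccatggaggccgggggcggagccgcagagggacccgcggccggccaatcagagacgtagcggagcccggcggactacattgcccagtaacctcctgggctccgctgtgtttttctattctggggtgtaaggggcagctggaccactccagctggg
The E-box began 33 bases before the start in SLC44A4, 14 after it in SLC48A1 and 229 before it in SLC25A27, and TGATGNAA began 220 before it in SLC1A3. Neither form is in the window of SLC12A2. Across 27305 windows CACCTG occurred in 20.6%, and in 25% of the 136 carriers with a window. It occurred in 8 of 35 carriers above and 5 of 22 below in every pair of lines. A match of letters is a description and not a site of binding.

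Amino acid carriers had values in both directions, with a median difference of -0.07. In every pair 10 of 26 lay below and 7 above, where the shares of all genes were 13.2% and 24.8%. The share below was larger than that of all genes, which was not tested. Both sides included near ties. Below, the closest pairs of SLC15A4, SLC38A9 and SLC36A4 differed by only -0.003, -0.006 and -0.008. SLC36A4, counted below, reached 1 RPKM only in METS, and SLC38A6, counted above, only in SPH. SLC7A5, the leucine and tryptophan exchanger LAT1, stood at 104 RPKM in SA and 89.4 in SPH, against 129 in METS and 131 in DLD1, with an adjusted p of 0.382 (limma-trend). SLC3A2, the heavy chain that brings SLC7A5 and SLC7A11 to the surface, stood at 60.4 RPKM in SA and 54.5 in SPH, against 67.3 in METS and 64.0 in DLD1. SLC1A5, a glutamine exchanger, stood at 112 RPKM in SA and 109 in SPH, against 128 in METS and 133 in DLD1. In all 3 genes both mesenchymal values lay below both epithelial ones, by less than the 1.5-fold used below.

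SLC7A11, the cystine/glutamate exchanger, stood at 2.83 RPKM in SA and 2.64 in SPH, against 4.07 in METS and 3.19 in DLD1. SLC6A9, a glycine carrier, stood at 1.94 RPKM in SA and 2.22 in SPH, against 3.41 in METS and 3.15 in DLD1, and its exons overlap CCDC24 on the opposite strand. The opposite order held for SLC7A8 (LAT2), at 31.8 RPKM in SA and 32.03 in SPH, against 25.7 in METS and 26.3 in DLD1, and for SLC1A4, a neutral amino acid carrier, at 15.2 RPKM in SA and 15.7 in SPH, against 11.6 in METS and 13.5 in DLD1. Adjusted p was 0.615 for SLC7A11, 0.348 for SLC6A9, 0.509 for SLC7A8 and 0.573 for SLC1A4 (limma-trend). The window of SLC3A2, plus strand of chr11:62881449-62881748, is shown because the carrier pairs with SLC7A5 and holds TGATGNAA, in capitals on the reverse strand, from 37 bases after the start.
SLC3A2: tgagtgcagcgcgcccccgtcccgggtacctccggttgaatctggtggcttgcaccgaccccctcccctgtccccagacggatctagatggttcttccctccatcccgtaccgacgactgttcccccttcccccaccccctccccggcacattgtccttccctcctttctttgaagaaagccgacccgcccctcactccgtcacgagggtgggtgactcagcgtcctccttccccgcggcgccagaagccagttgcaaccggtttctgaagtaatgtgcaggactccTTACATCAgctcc
TGATGNAA occurred in 3.67% of all windows and in 8 of the 136 carriers' windows (5.88%). It was in 1 of the 35 carriers above and 2 of the 22 below in every pair of lines, and in 5 of the other 79.

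**Figure D2:**
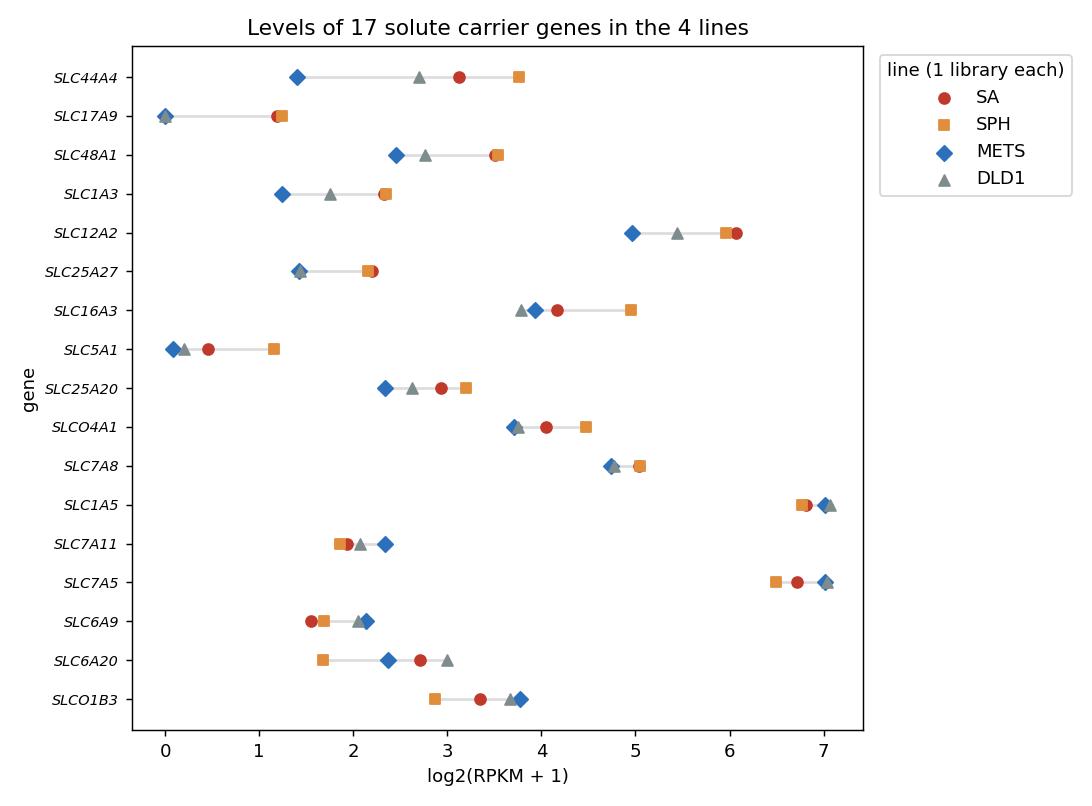
Levels of 17 solute carrier genes as log2(RPKM + 1) on the horizontal axis, 1 point per line (SA, SPH, METS, DLD1; 1 library each), the grey bar spanning the lowest and highest. SLC48A1 and SLC25A27 show both mesenchymal lines apart from both epithelial lines, and SLC7A5 and SLC1A5 the opposite order, none past an adjusted p of 0.05. SLC17A9 is listed at 0 in METS and DLD1.

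Carriers of lactate, sugar and organic anions had a median difference of 0.13 in the sugar and carboxylate group, with 6 of 21 above and 1 below in every pair, where the shares of all genes were 24.8% and 13.2%. SLC16A3, the lactate exporter MCT4, stood at 16.9 RPKM in SA and 30.1 in SPH, against 14.3 in METS and 12.8 in DLD1. SPH was the high line, and its exons overlap CSNK1D on the opposite strand. SLC16A1, the lactate and pyruvate carrier MCT1, stood at 62.4 RPKM in SA and 50.8 in SPH, against 53.0 in METS and 49.1 in DLD1, so the classes overlapped. SLCO4A1, a thyroid hormone and organic anion carrier, stood at 15.6 RPKM in SA and 21.3 in SPH, against 12.1 in METS and 12.5 in DLD1. SLCO1B3, an organic anion carrier of the liver, had the opposite order, at 9.18 RPKM in SA and 6.29 in SPH, against 12.6 in METS and 11.7 in DLD1. Adjusted p was 0.530 for SLC16A3, 0.429 for SLCO4A1 and 0.404 for SLCO1B3 (limma-trend).

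**Figure D3:**
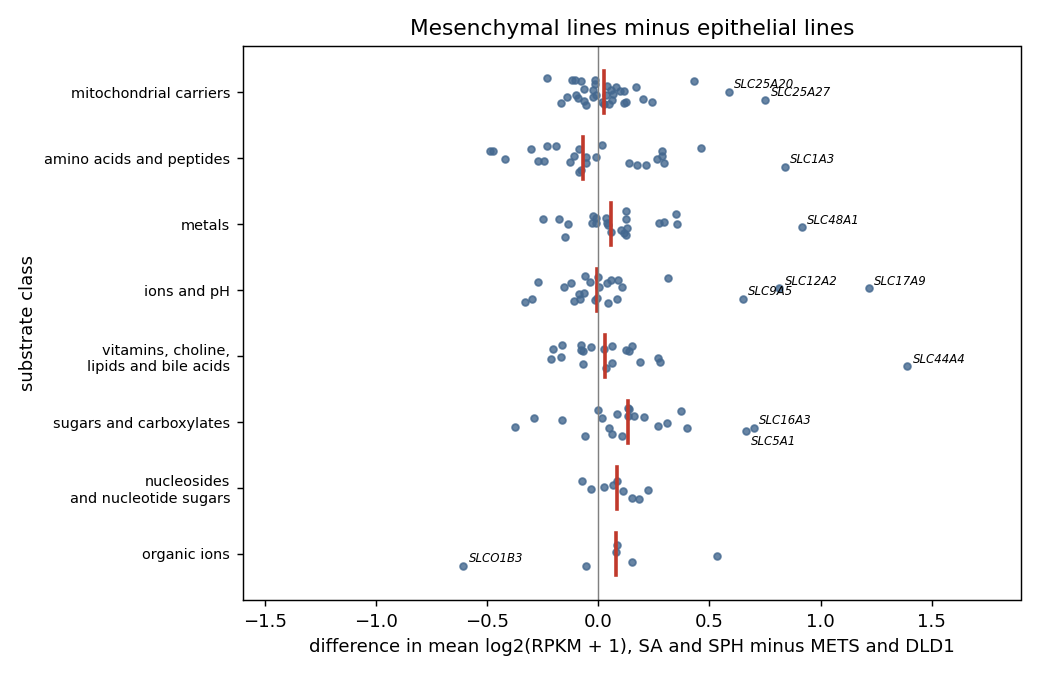
Difference in mean log2(RPKM + 1), SA and SPH minus METS and DLD1, for the 165 solute carrier genes by substrate group. Each point is 1 gene and each red bar a group's median, from -0.07 for amino acids and peptides to 0.13 for sugars and carboxylates; most points lie within 0.5 of 0.

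SA and SPH were then set against DLD1 one at a time. With 1 library a line there is no test, and a gene was counted where its log2(RPKM + 1) differed by at least 1 and its higher library reached 1 RPKM. This is a fold of 2 on values with 1 added, which a low gene can miss when its RPKM alone differs by more. SA had 1 of 158 carriers past that limit upward (SLC17A9) and 0 downward, against 0.44% and 0.238% of all genes. SPH had 3 of 163 upward (SLC16A3, SLC17A9 and SLC44A4) and 1 downward (SLC6A20), against 0.716% and 0.542% of all genes. Listed at 0 in DLD1, SLC17A9 passed the limit in both lines through the minimum of 1 RPKM alone. Nothing is read from its place in these counts. On the log2(RPKM + 1) scale SPH minus DLD1 was 1.17 for SLC16A3, 1.06 for SLC44A4 and -1.31 for SLC6A20. SLC6A20, a proline and glycine carrier, stood at 5.55 RPKM in SA and 2.21 in SPH, against 6.97 in DLD1. The comparisons share the DLD1 library, so its error enters both.

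A fold of 1.5, chosen after seeing the data, counted 16 of 163 carriers in SPH against DLD1 (9.82%), where 4.62% of all genes passed. In SA it counted 5 of 158 (3.16%), where 2.83% of all genes passed. SLC17A9 and SLC5A1 met the minimum of 1 RPKM against DLD1 in SPH only through SPH, as SLC17A9 did in SA only through SA. Nothing is read from their place in these counts, and the shares were not tested. The 16 in SPH were 13 higher and 3 lower than DLD1. Besides the 4 above they were SLC1A3, SLC2A10, SLC5A1, SLC16A5, SLC20A1, SLC25A27, SLC30A10, SLC46A3, SLC48A1 and SLCO4A1 upward and SLC16A9 and SLCO1B3 downward. SLC5A1, the sodium-glucose cotransporter, stood at 0.37 RPKM in SA and 1.23 in SPH, against 0.15 in DLD1, values that rest on few reads. SLC20A1, a sodium-phosphate carrier, stood at 31.7 RPKM in SA and 39.6 in SPH, against 24.4 in DLD1.

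Set against each other, SPH had 0 of 164 carriers above SA by the rule on log2(RPKM + 1) and 1 (SLC6A20) below it, against 0.131% of all genes each way. With a pseudocount of 0.1 SLC2A12 and SLC5A1 were also counted, both above SA. The fold of 1.5, chosen after seeing the data, counted 7 carriers (4.27%), against 1.85% of all genes, which was not tested. Of these carriers, SLC2A12, SLC5A1, SLC16A3, SLC16A5, SLC25A6 and SLC44A4 were higher in SPH. SLC2A12 and SLC5A1 met the minimum of 1 RPKM in this pair only through SPH, so nothing is read from their place in either count. SLC2A12, a glucose carrier, stood at 1.28 RPKM in SPH, against 0.45 in SA, and its exons overlap those of TBPL1 on the opposite strand. SLC16A5, a monocarboxylate carrier of the SLC16 family, stood at 13.8 RPKM in SPH, against 8.62 in SA.

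METS, the line from the lung metastasis, had 0 of 159 carriers above DLD1 by that rule and 2 below, SLC44A4 among them, against 0.523% and 0.896% of all genes. With a pseudocount of 0.1 the rule counted 2 above (SLC9A2 and SLC34A3) and 3 below. The fold of 1.5 counted 8 carriers (5.03%), against 5.41% of all genes. SLC44A4 held 1.64 RPKM in METS and 5.50 in DLD1, a log2 difference of -1.30. SLC35A4 had 2.33 RPKM in METS and 4.66 in DLD1, and overlaps APBB3 on the opposite strand.

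Of 159 carriers, 68 lay above DLD1 in METS and 91 below. The median difference was -0.03 over the 25 ion carriers and -0.02 over both the 23 metal carriers and the 9 carriers of nucleosides and nucleotide sugars. SLC9A2, a sodium/proton exchanger of the gut surface, reached 4.31 RPKM in METS and 1.81 in DLD1, while SA (2.26) and SPH (1.89) lay nearer to DLD1. SLC34A3, a sodium-phosphate carrier known from the kidney, reached 1.80 RPKM in METS and 0.72 in DLD1, with SA at 1.32 and SPH at 1.41 RPKM. SLC35A1, which brings CMP-sialic acid into the Golgi, had 8.64 RPKM in METS and 4.83 in DLD1, with SA at 7.20 and SPH at 6.99 RPKM. SLC30A10, a manganese exporter, had 2.53 RPKM in METS and 1.32 in DLD1. All 3 derivatives lay above DLD1 in SLC34A3 and SLC35A1, and in SLC30A10, with SA at 2.47 and SPH at 2.83 RPKM. SLC30A1, the zinc exporter of the cell surface, stood likewise at 5.15 RPKM in SA, 5.31 in SPH and 4.43 in METS, against 3.36 in DLD1. All 3 comparisons share the single DLD1 library, so its error enters each. SLC34A3, SLC35A1 and SLC30A10 were named for their high METS-to-DLD1 difference, and the share of all genes with this order was not counted. The median METS-to-DLD1 difference of the 159 carriers was -0.03, as it was for all genes.

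**Figure D4:**
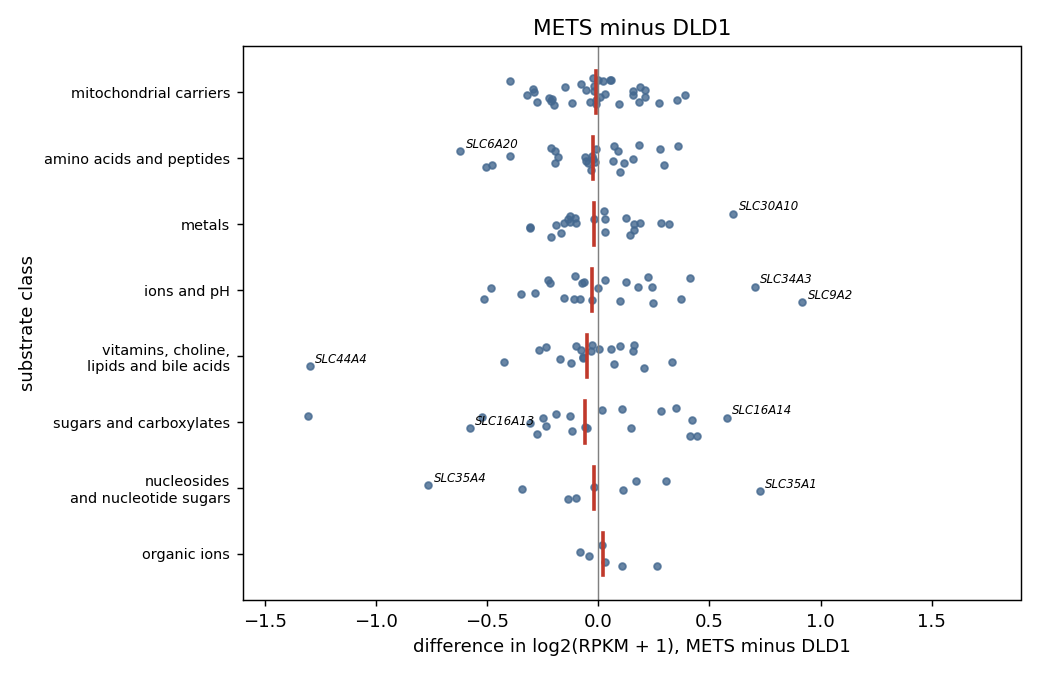
Difference in log2(RPKM + 1), METS minus DLD1 (1 library each), for the 165 solute carrier genes by substrate group, with a red bar at each group's median. SLC44A4 lies at -1.30, and SLC9A2 is the highest at 0.92.

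Genes that serve the carriers were taken as 7 lists of partners and neighbours in transport. Of 49 tested, 1 gene passed and 3 had an unadjusted p under 0.05 (limma-trend), where 974 of all 11262 genes had one and 40 passed. It was CA2, a carbonic anhydrase that supplies bicarbonate and protons to exchangers. CA2 fell to 5.16 RPKM in SA and 5.05 in SPH, against 10.7 in METS and 12.3 in DLD1, with a log2 difference of -1.03 (SE 0.12) and an adjusted p of 0.0425 (limma-trend). Of 6 genes of the sodium-potassium ATPase that reached the test, which builds the sodium gradient used by symporters, 0 passed, and none of 4 partner proteins, 8 kinases and ligases, 5 zinc-buffering genes, 4 genes of iron uptake and storage or 20 carriers without an SLC name did. Ferritin light chain (FTL) stood at 755 RPKM in SA, 1282 in SPH and 917 in METS, against 585 in DLD1. MT2A, a zinc-binding metallothionein, stood at 57.2 RPKM in SA, 58.4 in SPH and 52.8 in METS, against 46.9 in DLD1. The zinc-buffering genes did not share 1 direction. MT1F stood at 1.81 RPKM in SA, 2.95 in SPH and 3.03 in METS, against 3.91 in DLD1. MT1X stood at 8.42, 10.2 and 9.0 RPKM, against 8.63 in DLD1.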

How the data were processed

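The authors deposited 1 table of values per gene and line, to 2 decimals, read here as RPKM from the values, since the file states no unit. Reads were placed on hg19, per the submitters' processing notes, and RNA came from a Roche isolation kit with standard Illumina libraries, per the labels' protocols. The aligner, the counting tool, the annotation and the use of strand were each not given in the sources used here. Depth was estimated from the step of low values with GENCODE 29 exon lengths, and intervals cover counting error only. Values were used as log2(RPKM + 1), which understates the folds of low genes. limma-trend (limma 3.58.1, R 4.3.3) with Benjamini-Hochberg adjustment compared the classes, and was tested on simulated data. Single lines were compared by fixed folds. The members, gene lists, named genes (largest folds, highest levels, substrate groups and carriers known from colon or tumour cells) and tests were chosen with earlier results of these data known. Alternatives were another pseudocount, filter, scaling, fold and trend setting, and each library left out. A total of 0 value columns went unused. The values of 1 member are not reported here.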

Additional observations from a re-analysis of the deposited data

How the results depend on the processing

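The count of 1 carrier passing the class test held with pseudocounts of 0.1 and 5, with median-of-ratios scaling and without a trend. That carrier was SLC17A9, which had to differ once it passed the filter, so nothing is read from the count holding. Without a filter on low values the count was 0. There 18 of 165 carriers had an unadjusted p under 0.05 (limma-trend), against 2208 of 24097 genes. With a minimum of 5 RPKM the count was also 0, and 10 of only 91 carriers tested had one, against 467 of 6990 genes. Leaving out 1 library left a class with a single line, and the count moved in each such fit. The lone line is then assumed to vary like the other class. With a pseudocount of 0.1, counts at least 2-fold different were 2 for SA over DLD1 (1 as reported) and 6 for SPH over DLD1 (4 as reported). They were 5 for METS over DLD1 (2 as reported) and 3 for SPH over SA (1 as reported). With a pseudocount of 5 they were 0 in all 4 comparisons. With a minimum of 5 RPKM they were 0 for SA, 3 for SPH and 1 for METS over DLD1, and 1 for SPH over SA. A fold of 1.5, added after seeing the data, counted 5 carriers for SA, 16 for SPH and 8 for METS over DLD1, and 7 for SPH over SA. Class differences were recomputed for 27 carriers. In 24 the direction held in every setting. Leaving out 1 library gave -0.007 (without SA) to 0.286 for SLC16A1 (0.139 as reported), -0.411 to 0.20 (without SA) for SLC25A6 (-0.106 as reported), and -0.061 to 0.029 for SLC25A5 (-0.016 as reported, 0.029 without SA and 0.023 without DLD1). Of 15 differences between single lines, 0 reversed with another pseudocount or scaling. No paired analysis was possible because each line has 1 library and the labels give no replicate numbers. With 1 library a line, depth limits only counting error, and the spread between cultures is unknown.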

Other observations

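Just under the threshold of 1 RPKM, SLC38A5, a glutamine and glycine carrier, stood at 0.85 RPKM in SA and 0.98 in SPH, against 0.04 in METS and 0.09 in DLD1. It was chosen after its values were seen, is not 1 of the 165 genes and was not tested.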
